A study of Mus musculus with 5 samples.

Results

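The DNA replication machinery was followed as 43 genes of S phase, the part of the cell cycle in which the genome is copied. They cover origin licensing, the replicative helicase, the polymerases, the sliding clamp and its loader, the processing of Okazaki fragments and thymidine nucleotide supply. The members were chosen by gene symbol, and each was read from the probe set with the highest mean among those annotated with that 1 symbol. All 43 were measured, out of 19938 genes, and all 43 had a mean signal above the median of all genes.

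RNA came from 5 cultures of mouse pancreatic cells, each hybridised to 1 expression array, and the growth text of the labels speaks of primary PDAC cells below 6 passages for every sample. The titles name the Pdx-1Cre transgene in both groups, though not for normal ductal replicate 2. The Pdx-1 promoter of this transgene drives Cre recombinase in the pancreatic lineage. All titles give floxed p53 on both alleles (p53L/L), so p53 was targeted in a control that carries Cre too. The controls were 2 normal ductal cultures without further alleles, and PDAC, for pancreatic ductal adenocarcinoma, stands for 3 cultures with 1 floxed Apc allele besides (APCL/+). The title of normal ductal replicate 2 names neither Cre nor ductal cells, although its other labels do say normal pancreatic ductal, and the title of PDAC replicate 3 adds the words mutant cell. The labels call the samples biological replicates and name no animals, the design text calls them cell lines, and neither says whether a culture is 1 clone. The p-values therefore measured the spread between these 5 cultures, which may be technical, and the number of arrays limits the precision.

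Duct and epithelial markers, 10 of 12 measured, had mean log2 signals of 11.26 and 10.88 in the controls, replicate 1 first, against 6.83, 7.92 and 9.81 in PDAC replicates 1, 2 and 3. All values by array are given in that order. Markers of other cells were high in normal ductal replicate 2: 5 of 10 acinar, 6 of 8 islet, 6 of 10 endothelial and 1 of 9 leukocyte markers lay more than 1 above replicate 1. The log2 of the summed signal was 12.75 for acinar, 12.00 for islet, 10.79 for endothelial and 10.73 for leukocyte markers in that culture. In normal ductal replicate 1 these sums were 8.96, 9.40, 9.16 and 10.28, and in PDAC cultures they were 9.21 to 9.35, 8.40 to 8.54, 8.67 to 8.79 and 8.89 to 9.40. Fibroblast markers (12) had a mean of 7.29 in normal ductal replicate 1, 10.02 in replicate 2 and 8.91 to 9.24 in PDAC cultures. The part of these cells in the results was not tested, and counts or medians without normal ductal replicate 2 stand beside those that it moves. Shares of all genes also moved with each array left out, so counts made without an array are not on a common scale.

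Replication is prepared in G1, when the origin recognition complex, Cdc6 and Cdt1 load rings of Mcm2 to Mcm7 onto origins. In S phase Cdc45 and the GINS complex join the rings to form the working helicase, primase and polymerase alpha start each strand, and polymerases delta and epsilon extend them on the PCNA clamp. Many of these genes are transcribed at the border of G1 and S under the E2F factors, which the retinoblastoma proteins hold in check. In a culture, more cells in S phase and more transcript in each such cell cannot be told apart.

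The replication genes stood higher in PDAC than in normal ductal cultures by a mostly small step. Its median ran from 0.28 for origin licensing to 1.27 for the nucleotide genes. The median log2 difference of the 43 members was 0.60, beside 0.01 over all genes tested and 0.05 over the 9969 genes above the median level. The difference was above 0 for 42 of 43 members, as it was for 53% of all genes and 56% of those above the median level. At 0.5 or more lay 26 members, but 3 alone (Tk1, Tyms and Pold2) at 1 or more. The shares of all genes at these sizes were not counted. The spread ran from -0.21 for Pold3, a subunit of polymerase delta, to 1.49 for Tk1, thymidine kinase 1.

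Limma's moderated test, adjusted by Benjamini-Hochberg over all genes, called 0 of the 43 members at an adjusted p under 0.05, where 0.0552% of all genes were called (11 genes) and 0.0502% of the genes above the median level. The smallest adjusted p of a member was 0.135, for Tk1. At an unadjusted p under 0.05 24 members (55.8%) were higher, beside 6.5% of all genes and 11.2% of the genes above the median level. No member was lower at that p, beside 6.86% and 8.85%. Every PDAC array lay above both normal ductal arrays for 32 members (74.4%), beside 13.6% of all genes and 23% of those above the median level. Pold3 was the 1 member with every PDAC array below both, a pattern that 12.8% of all genes and 17.1% of those above the median level had. The arrays of the groups overlapped for 10 members, namely Orc1 to Orc5, Cdc6, Mcm8, Pold1, Pole and Fen1. Without normal ductal replicate 2 the count of members higher at an unadjusted p under 0.05 was 11, beside 5.21% of all genes. The median difference was then 0.47, and all 3 PDAC arrays lay above normal ductal replicate 1 for 33 members. That order is easier to meet against 1 control, and the share of all genes that met it was not counted. With 1 control left, the spread in the fit comes from the 3 PDAC arrays alone, and the lone control is assumed to vary like them. The count of all genes called also moved with single arrays, to 0 without any 1 of the PDAC replicates, 1287 without normal ductal replicate 1 and 990 without replicate 2.

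**Figure D1:**
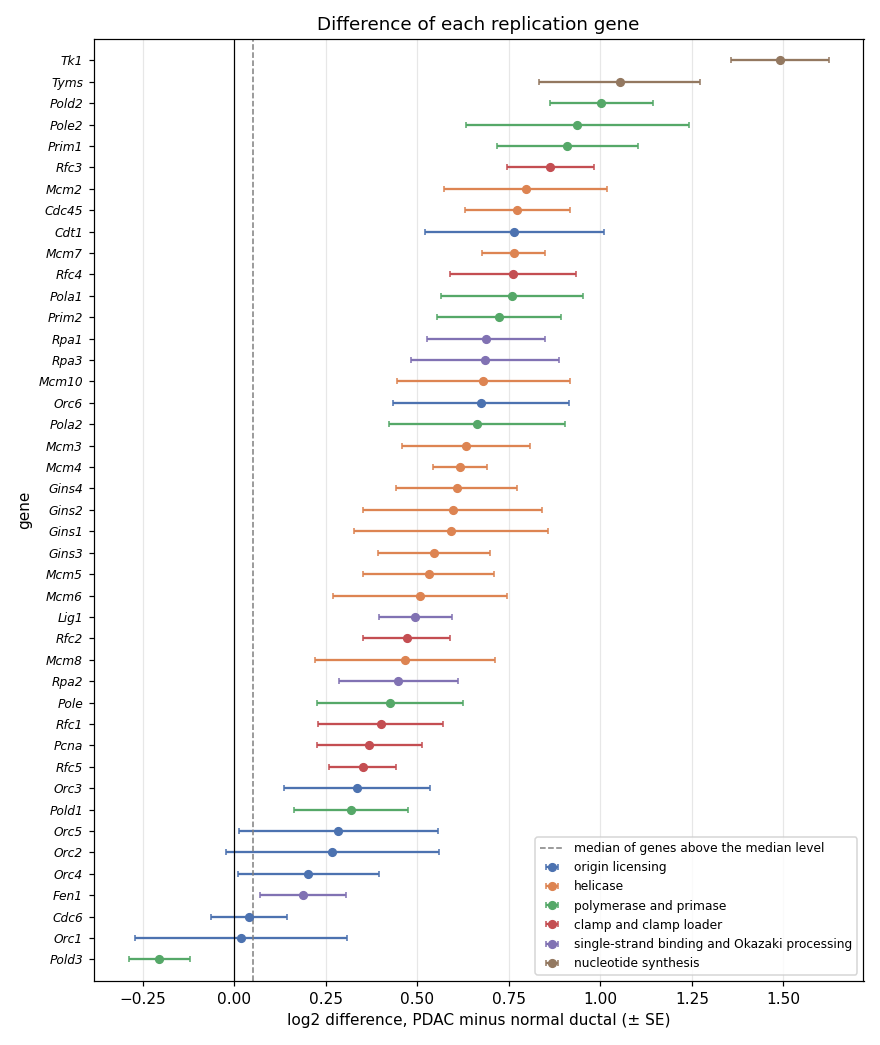
The log2 difference between PDAC and normal ductal cultures is plotted on the x axis for each of the 43 replication genes, with its moderated standard error as the bar and its role as the colour; the dashed line is the median of genes above the median level, 0.05. Tk1 lies at 1.49 and Tyms at 1.05, while Orc1 (0.02) and Cdc6 (0.04) lie near 0 and Pold3 at -0.21.

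The step was present in each pair of cultures across the groups. Against normal ductal replicate 1, 38, 41 and 35 of the 43 members were higher in PDAC replicates 1, 2 and 3, with median differences of 0.45, 0.62 and 0.38. Against normal ductal replicate 2 these counts were 41, 42 and 39, with medians of 0.62, 0.71 and 0.53. In the genes above the median level the medians of the same 6 pairs lay between 0.00 and 0.09.

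The members also varied inside each group, by less. Normal ductal replicate 2 lay below replicate 1 for 28 members and above it for 14, with a median difference of -0.12. The share above, 32.6%, was near the 30.8% of all genes but under the 42.1% of genes above the median level. Those genes had a median difference of -0.03. Among PDAC cultures, replicate 2 was the highest for 22 members, replicate 1 for 12 and replicate 3 for 9, and replicate 3 was the lowest for 23. The median member stood 0.23 lower in PDAC replicate 3 than in replicate 2. Genes above the median level had a median difference of -0.06 in that pair. Of the members 27.9% were higher in replicate 3, beside 36.8% of all genes and 39.5% of those above the median level. No licensing gene was highest in PDAC replicate 3, and 7 of the 8 were lowest there. The shares of all genes with their highest or lowest PDAC value in each array were not counted.

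**Figure D2:**
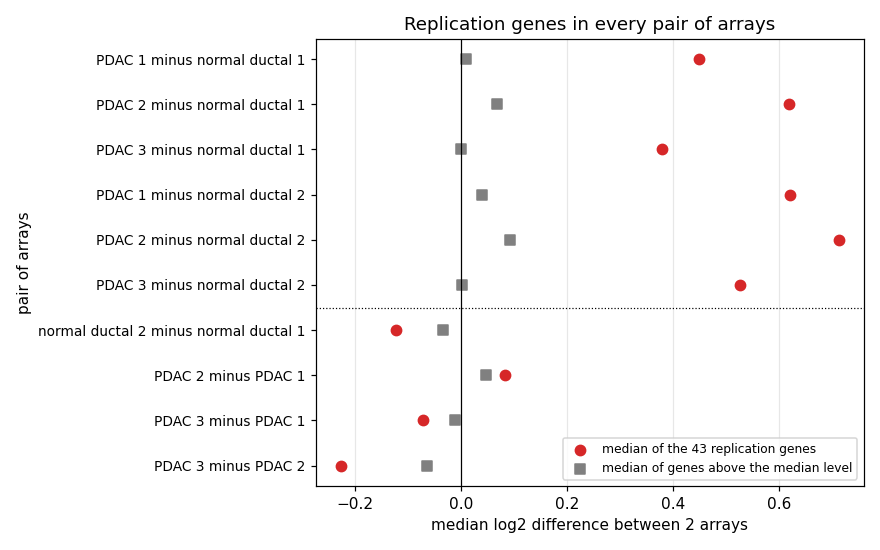
Each row is a pair of arrays, and the x axis gives the median log2 difference between them over the 43 replication genes (circles) and over the genes above the median level (squares); the dotted line parts the 6 pairs across groups from the 4 pairs within a group. The replication genes lie between 0.38 and 0.71 in the pairs across groups and between -0.23 and 0.08 within groups.

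The members' promoters were searched for the E2F-type letters TTTCCCGC, TTTGGCGC, TTTCGCGC and TTTGCCGC on both strands, in RefSeq windows (GRCm38.p6) of 250 bases before to 50 after a transcript start. Windows were at hand for 36 of the 43 members, 44 windows in all, and 16 of them (36.4%) held such a match, beside 2.26% of all 32851 windows and 2.99% of the windows of genes tested. The CCAAT box stood in 54.5% of the member windows and 37.4% of all windows, either strand counted. The 16 members with an E2F-type match had a median difference of 0.52 (-0.21 to 0.94) and the 20 without one a median of 0.68 (0.19 to 1.49), ranges that overlap, and the sets were not tested against each other. The match lay wholly before the start in 9 members, and in 3 of these in sequence that belongs to no annotated gene. Those 3 upstream stretches are shown, 5′ to 3′ on the gene's strand and ending at the base before the start, because they let a reader see where the letters lie; capitals mark the E2F-type matches.
Rfc3 (chr5:151651209-151651408, minus strand): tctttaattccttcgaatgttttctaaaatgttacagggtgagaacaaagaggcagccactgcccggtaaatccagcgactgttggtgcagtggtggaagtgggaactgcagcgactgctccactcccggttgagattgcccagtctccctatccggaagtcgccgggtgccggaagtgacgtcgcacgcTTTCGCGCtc
Gins3 (chr8:95633359-95633558, plus strand): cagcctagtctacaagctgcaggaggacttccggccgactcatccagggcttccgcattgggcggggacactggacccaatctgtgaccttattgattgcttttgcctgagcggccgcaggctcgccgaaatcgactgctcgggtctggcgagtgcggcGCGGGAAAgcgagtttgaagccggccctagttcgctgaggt
Mcm6 (chr1:128359706-128359905, minus strand): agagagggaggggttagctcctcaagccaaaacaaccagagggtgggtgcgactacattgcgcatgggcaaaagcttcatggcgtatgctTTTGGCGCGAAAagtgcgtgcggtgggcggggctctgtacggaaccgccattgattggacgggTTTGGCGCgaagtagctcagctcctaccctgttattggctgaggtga
Mcm6 held 3 matches, of which the pair at -110 and -106 overlap on opposite strands and the other begins at -47, counted back from the start. The match of Gins3 begins at -41 and the upstream match of Rfc3 at -10, and Rfc3 has another that begins at the start itself.

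Origin licensing genes had a median difference of 0.28 over 8 genes, the lowest of the 6 roles. An unadjusted p under 0.05 was held by 1 gene (12.5%), beside 6.5% of all genes and 11.2% above the median level. The median was 0.16 without normal ductal replicate 2 and 0.09 without PDAC replicate 1, with 0 genes at that p. Without PDAC replicate 3 it was 0.46, above the 0.45 of the clamp genes, with 2 genes. The 1 gene with all arrays was Cdt1, which brings the Mcm rings to origins. Its signal was 9.40 and 8.81 in the controls against 9.76, 10.11 and 9.74 in PDAC, a difference of 0.76 (SE 0.24, adjusted p = 0.339). Every PDAC array lay above both normal ductal arrays.

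Orc6, the smallest subunit of the origin recognition complex, stood at 9.25 and 9.41 in the controls against 9.94, 10.37 and 9.69 in PDAC (0.67, SE 0.24, adjusted p = 0.375), again with no overlap. The other subunits, Orc1 to Orc5, had differences of 0.02 to 0.34, and none of the 5 parted the groups. Whether Orc6 differs from them was not tested.

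Orc3 lay at 9.02 and 9.16 in the controls against 9.41, 9.72 and 9.16 in PDAC, so that PDAC replicate 3 fell within the normal ductal values. Orc5, part of the ring of the complex that binds ATP, lay at 7.80 and 7.59 against 8.41, 7.88 and 7.65, with PDAC replicate 3 between the controls. Orc4, another ATP-binding subunit, had the same order of groups, at 8.99 and 8.80 against 9.39, 9.01 and 8.89. Orc2 had a difference of 0.27 (SE 0.29), with PDAC replicate 3 the lowest of all arrays.

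Orc1, the subunit whose level follows the cell cycle, read 7.01 in both normal ductal cultures and in PDAC replicate 1, 7.48 in PDAC replicate 2 and 6.60 in replicate 3. These 3 arrays held the same deposited value, and the difference of 0.02 turned to -0.21 without PDAC replicate 2. Cdc6, the loader that works with Orc1, read 8.23 and 7.99 in the controls against 8.12, 8.19 and 8.14 in PDAC cultures. All 3 PDAC values lay between the normal ductal values, and the difference of 0.04 (SE 0.10) turned to -0.08 without normal ductal replicate 2.

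**Figure D3:**
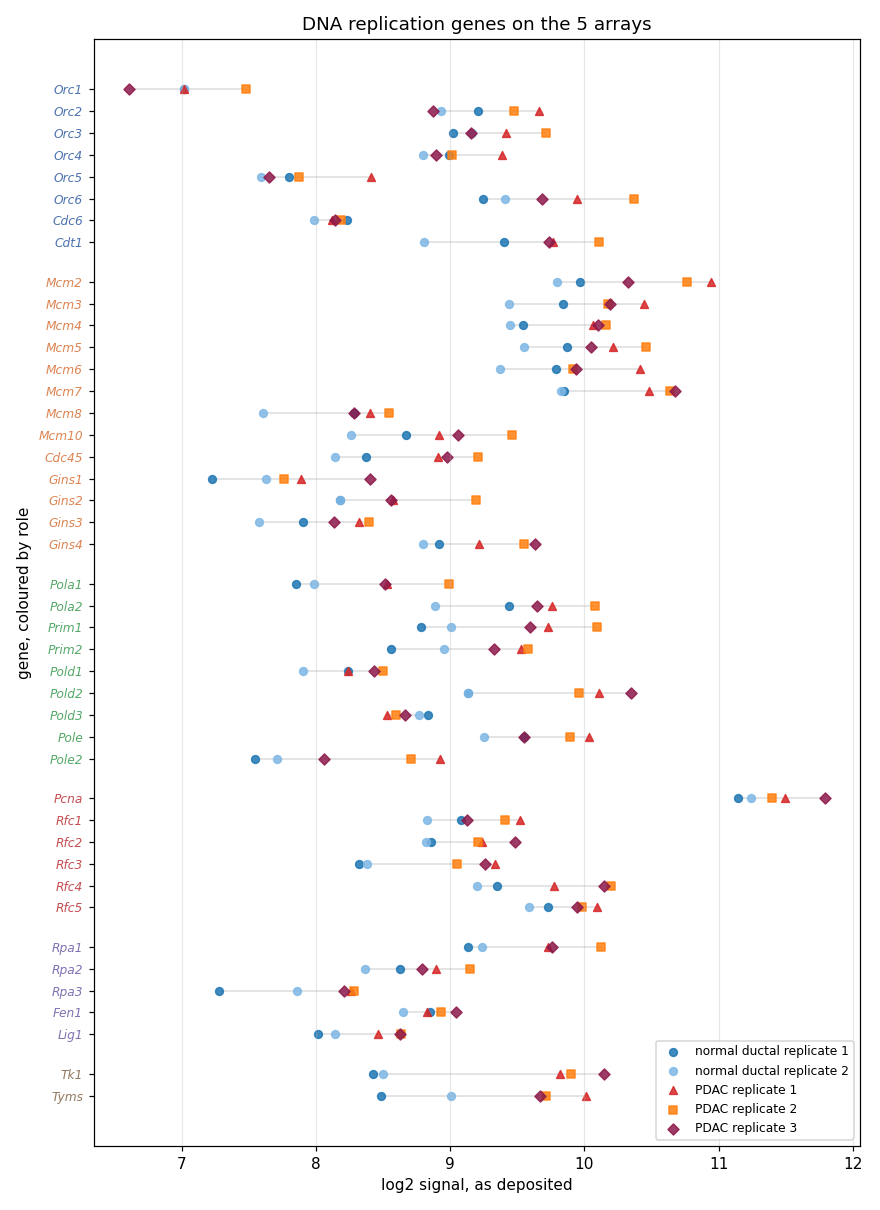
The deposited log2 signal of each replication gene is plotted on the x axis for the 5 arrays, with circles for normal ductal and other markers for PDAC cultures, and genes in rows by role. The PDAC markers lie to the right of both circles for 32 genes, among them all of Mcm2 to Mcm7 and Gins1 to Gins4, and to the left for Pold3.

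All 13 helicase genes were higher on average in PDAC, with differences of 0.47 to 0.80 and a median of 0.61. The groups were parted for 12 of them, beside 13.6% of all genes and 23% of those above the median level. An unadjusted p under 0.05 was held by 9 (69.2%), beside 6.5% and 11.2%. Without PDAC replicate 1 or 2 the number at that p was 4 each, without normal ductal replicate 2 it was 3, and without normal ductal replicate 1 or PDAC replicate 3 it was 6 each, with all 13 differences above 0 in each case.

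Mcm2 to Mcm7, the 6 subunits of the ring that unwinds DNA, differed by 0.51 (Mcm6) to 0.80 (Mcm2). Mcm7 had the smallest p of them, with 9.85 and 9.82 in the controls against 10.48, 10.64 and 10.67 in PDAC (0.76, SE 0.09, adjusted p = 0.149). Mcm4, which is phosphorylated by the Cdc7 kinase when origins fire, stood at 9.54 and 9.44 against 10.07, 10.16 and 10.10 (0.62, SE 0.07, adjusted p = 0.156). In both genes the gap between groups was several times the spread inside either group. Mcm3 was at 9.84 and 9.43 against 10.44, 10.17 and 10.19 (0.63, SE 0.18), and Mcm2 (0.80, SE 0.22), Mcm5 (0.53, SE 0.18) and Mcm6 (0.51, SE 0.24) also parted the groups.

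Cdc45, which completes the helicase together with GINS, stood at 8.38 and 8.14 in the controls against 8.91, 9.20 and 8.98 in PDAC (0.77, SE 0.14, adjusted p = 0.208). Of the 4 GINS subunits, which differed by 0.54 to 0.61, Gins4 was at 8.92 and 8.80 against 9.21, 9.55 and 9.63 (0.61, SE 0.16). The subunits did not peak in the same culture: Gins1 and Gins4 were highest in PDAC replicate 3, and Gins2 and Gins3 in replicate 2. The groups did not overlap for any of the 5 genes.

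Mcm10, needed to activate the loaded helicase, differed by 0.68 (SE 0.24). Mcm8, a relative that acts in recombination repair rather than in the main ring, was the 1 helicase gene whose arrays overlapped. It read 8.29 and 7.61 in the controls against 8.40, 8.54 and 8.29 in PDAC, with normal ductal replicate 1 and PDAC replicate 3 at the same deposited value.

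Polymerase and primase genes had a median difference of 0.72, with 8 of 9 above 0, 5 at an unadjusted p under 0.05 and 6 that parted the groups upward. Of all genes 6.5% were higher at that p and 13.6% parted the groups upward, and above the median level 11.2% and 23%. The 4 subunits of the priming complex were alike: Pola1, Pola2, Prim1 and Prim2 differed by 0.66 to 0.91. The count at that p was 3 without either of the normal ductal replicates.

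Prim1, the catalytic subunit of primase, which lays the RNA primer, stood at 8.78 and 9.01 in the controls against 9.73, 10.09 and 9.60 in PDAC (0.91, SE 0.19, adjusted p = 0.228). Its partner Prim2 was at 8.56 and 8.95 against 9.52, 9.58 and 9.33 (0.72, SE 0.17, adjusted p = 0.251). Pola1, the polymerase that extends the primer, was at 7.85 and 7.98 against 8.53, 8.99 and 8.51 (0.76, SE 0.19, adjusted p = 0.281). PDAC replicate 2 was the highest array for all 3 genes and also for Pola2.

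Polymerase delta, the lagging strand enzyme, has 4 subunits, whose values differed in sign. Pold2, its second subunit, read 9.14 and 9.13 in the controls against 10.11, 9.96 and 10.34 in PDAC, a fold of 2.00 (SE 0.14 on the log2 scale, adjusted p = 0.166). Pold1, the catalytic subunit, differed by 0.32 (SE 0.15), with PDAC replicate 1 at the same value as normal ductal replicate 1. Pold3, an accessory subunit that binds PCNA, read 8.84 and 8.77 against 8.53, 8.60 and 8.67, lower in each PDAC culture (-0.21, SE 0.08, adjusted p = 0.428). Pold4, the smallest subunit, from the companion list, read 7.96 and 9.08 in the controls against 8.24, 8.24 and 8.19 in PDAC (-0.30, SE 0.37), with the PDAC arrays between the controls. The difference between subunits was not tested.

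Of the leading strand polymerase epsilon, the accessory subunit Pole2 stood at 7.54 and 7.71 in the controls against 8.92, 8.71 and 8.06 in PDAC (0.94, SE 0.30, adjusted p = 0.341). Its PDAC values spread over a wider range than those of most members, with replicate 3 nearest to the normal ductal cultures. The catalytic subunit gene Pole differed by 0.42 (SE 0.20), and PDAC replicate 3 held the same value as normal ductal replicate 1.

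All 6 clamp and clamp loader genes were higher in every PDAC array than in both normal ductal arrays. The same held for 13.6% of all genes and 23% of those above the median level. The 6 genes had a median difference of 0.44, and 4 had an unadjusted p under 0.05, beside 6.5% and 11.2%. Without normal ductal replicate 2 that count was 1 and without normal ductal replicate 1 it was 2, with all 6 differences above 0. Rfc3 and Rfc4, small subunits of the ring that opens the clamp, had the largest differences. Rfc3 stood at 8.32 and 8.38 in the controls against 9.33, 9.05 and 9.26 in PDAC (0.86, SE 0.12, adjusted p = 0.166), and Rfc4 at 9.35 and 9.20 against 9.77, 10.20 and 10.14 (0.76, SE 0.17, adjusted p = 0.241).

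Rfc2 was at 8.86 and 8.82 in the controls against 9.24, 9.21 and 9.48 in PDAC (0.47, SE 0.12). Rfc5 had the smallest difference of the loader, with 9.73 and 9.58 against 10.09, 9.98 and 9.95 (0.35, SE 0.09), and the large subunit Rfc1 differed by 0.40 (SE 0.17). Pcna, the clamp itself, stood at 11.15 and 11.24 against 11.49, 11.39 and 11.79 (0.37, SE 0.14, adjusted p = 0.415). Its 2 probe sets held equal values on 4 of the arrays to the digits written here, so they are not independent readings. Pcna has near-identical pseudogene copies, which makes its level uncertain.

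Single-strand binding and Okazaki processing genes had a median difference of 0.49, with 3 of 5 at an unadjusted p under 0.05 (2 without any 1 array) and 4 that parted the groups. With all arrays, 6.5% of all genes were higher at that p and 13.6% parted the groups upward, and above the median level 11.2% and 23%. Rpa1, the large subunit of the protein that coats single strands, stood at 9.13 and 9.23 in the controls against 9.73, 10.13 and 9.75 in PDAC (0.69, SE 0.16, adjusted p = 0.251). Rpa2 was at 8.62 and 8.37 against 8.89, 9.15 and 8.79 (0.45, SE 0.16). Rpa3 was at 7.27 and 7.86 against 8.26, 8.28 and 8.21, with the PDAC arrays close to each other and the normal ductal arrays far apart (0.68, SE 0.20, adjusted p = 0.316). Without normal ductal replicate 2, where the close PDAC arrays alone give the spread, its adjusted p was 0.0316, the lowest over 16 alternatives, of which the highest gave 0.578. The second probe set of Rpa3 did not part the groups, since normal ductal replicate 2 and PDAC replicate 1 held the same value: it read 6.90 and 7.50 in the controls against 7.50, 7.57 and 7.75 in PDAC cultures.

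Lig1, the ligase that seals Okazaki fragments, read 8.01 and 8.14 in the controls against 8.46, 8.63 and 8.62 in PDAC (0.49, SE 0.10, adjusted p = 0.218). Fen1, the nuclease that trims their flaps, overlapped between groups at 8.85 and 8.65 against 8.83, 8.93 and 9.04 (0.19, SE 0.12). PDAC replicate 1 lay just under normal ductal replicate 1.

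The nucleotide genes had the largest differences of all members. Tk1, which salvages thymidine, read 8.43 and 8.50 in the controls against 9.81, 9.90 and 10.15 in PDAC, a fold of 2.81 (log2 difference 1.49, SE 0.13, adjusted p = 0.135). Its second probe set gave 7.99 and 8.17 against 9.46, 9.51 and 9.72. Tyms, thymidylate synthase, which makes thymidylate anew, read 8.48 and 9.01 against 10.01, 9.72 and 9.67, a fold of 2.07 (1.05, SE 0.22, adjusted p = 0.223). The lowest PDAC value lay more than 1 above the highest normal ductal value for Tk1, and well above it for Tyms. With the arrays at a common median the adjusted p of Tk1 was 0.0382, within a range of 0.0276 to 0.44 over 16 alternatives.

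Genes that work beside the members were taken from lists chosen by function. Of 29 replication companions (checkpoint, origin firing, clamp unloading and chromatin assembly factors), 25 had a difference above 0, the median was 0.41, and 12 (41.4%) were higher and none lower at an unadjusted p of 0.05 in limma's test, beside the 6.5% higher of all genes and 11.2% of those above the median level. Those with the smallest p were Mtbp, a partner of the firing factor Ticrr, Dscc1 and Chtf18, of an alternative clamp loader, and the helicase Recql4. Mtbp read 8.76 and 8.78 in the controls against 9.76, 9.87 and 9.66 in PDAC (0.99, SE 0.09, adjusted p = 0.140), and Dscc1 read 6.39 and 6.63 against 8.10, 7.69 and 7.70 (1.32, SE 0.18). Chtf18 differed by 0.86 (SE 0.15) and Recql4 by 0.85 (SE 0.15). The count of 12 was 10 (with 1 gene lower) and 6 without normal ductal replicates 1 and 2, and 7, 5 and 11 without PDAC replicates 1, 2 and 3.

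The list of dNTP supply genes, 18 of 19 measured, had a median difference of 0.44, with 5 higher (27.8%) and 0 lower at that p. Of all genes 6.5% were higher, and of those above the median level 11.2%. Dut, which clears dUTP, stood at 8.22 and 8.26 in the controls against 9.47, 9.01 and 9.57 in PDAC (1.11, SE 0.21, adjusted p = 0.208). Samhd1, which breaks dNTPs down, was higher as well (0.87, SE 0.19), as were the deoxycytidine kinase gene Dck (0.70, SE 0.17) and Rrm1, the large subunit of ribonucleotide reductase (0.43, SE 0.12). The count of 5 was 2, 5 and 9 without PDAC replicates 1, 2 and 3, beside 4.79%, 4.68% and 7.1% of all genes. Without normal ductal replicates 1 and 2 the median difference was 0.53 and 0.43.

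E2F and S-phase entry genes (23 measured) had a median difference of 0.34, with 9 higher (39.1%) and 0 lower at that p. The shares higher were 6.5% of all genes and 11.2% of those above the median level. Skp2, which marks the inhibitor p27 for destruction, read 8.31 and 8.42 in the controls against 10.10, 9.95 and 9.48 in PDAC (1.48, SE 0.23, adjusted p = 0.173). Ccna2, the cyclin of S phase, differed by 0.90 (SE 0.17), the pocket protein gene Rbl1 by 0.45 (SE 0.10) and the kinase gene Cdk2 by 0.29 (SE 0.08). The count of 9 was 7 (with 1 gene lower) and 2 without normal ductal replicates 1 and 2, and 3, 5 and 10 without PDAC replicates 1, 2 and 3.

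Polymerases and ligases used mainly in repair formed another list. Of 16 measured, 8 had a difference above 0 and 8 below, the median was 0.05, and 2 were higher (12.5%, near the 11.2% of genes above the median level) and 0 lower at that p, a count that was 0 higher without normal ductal replicate 2 (with 2 lower) or PDAC replicate 1 and 1 without PDAC replicate 2. The 2 were Polh, the polymerase that passes ultraviolet lesions, at 8.49 and 7.99 against 9.69, 9.80 and 9.07 (1.28, SE 0.31, adjusted p = 0.264), and Mad2l2, a subunit of polymerase zeta (0.51, SE 0.17). Next by p were Rev1, with 0.48 (SE 0.19), and Polg, the mitochondrial polymerase, with -0.32 (SE 0.13).

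Mitotic genes (19 measured) had a median difference of 0.47, with 11 higher (57.9%) and 0 lower at that p, 9 and 4 (with 1 lower) without normal ductal replicates 1 and 2, and 10, 7 and 8 without PDAC replicates 1, 2 and 3. With all arrays, 6.5% of all genes were higher and 11.2% of those above the median level. Without PDAC replicates 1, 2 and 3 the share of all genes was 4.79%, 4.68% and 7.1%. It moved as well where 1 control was left, so these counts are not on 1 scale. By p the mitotic genes were led by Top2a (0.52, SE 0.09), Ttk (0.69, SE 0.13), Aurka (0.42, SE 0.09) and Cenpa (0.76, SE 0.15). Mki67, the common proliferation marker, was named after its values were seen: it read 11.06 and 10.72 in the controls against 10.86, 10.92 and 10.86 in PDAC (-0.01, SE 0.12, adjusted p = 0.998). Plk1 (0.01, SE 0.16), Cenpf (0.07, SE 0.28), Cdk1 (0.10, SE 0.07) and Ccnb2 (0.11, SE 0.35), also named after their values were seen, stood near 0 too. For Cdk1 every PDAC array still lay above both normal ductal arrays. The mitotic list had its highest mean in PDAC replicate 3, at 10.21 against 9.98 and 10.09, whereas the members had their lowest PDAC mean there, at 9.24 against 9.33 and 9.41.

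**Figure D4:**
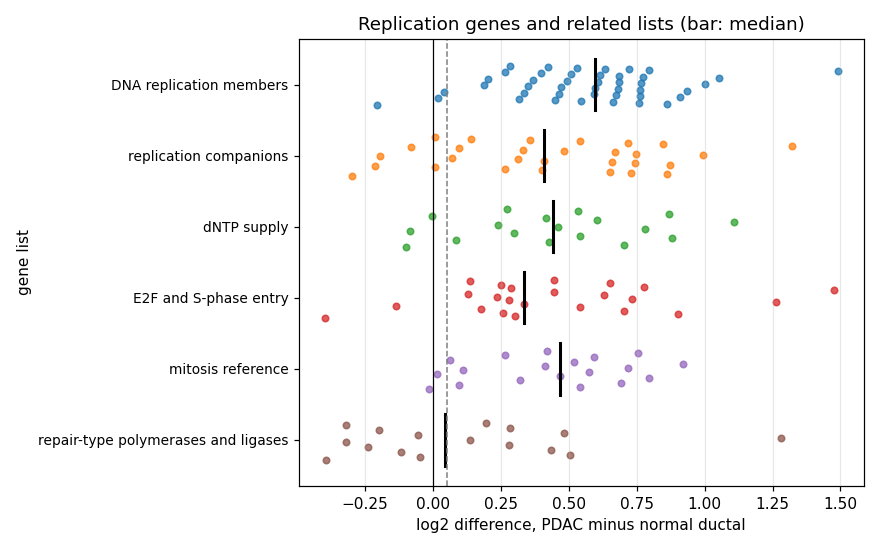
Each point is a gene, the x axis gives its log2 difference between PDAC and normal ductal cultures, rows are gene lists, black bars are list medians and the dashed line is the median of genes above the median level, 0.05. The replication genes have a median of 0.60, the 4 related lists of 0.34 to 0.47, and the repair-type polymerases and ligases of 0.05.

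The members lie on 13 chromosomes, at most 8 on 1 of them (chromosome 5, in the GRCm38.p6 assembly). Whole chromosomes differed between the groups: over genes above the median level the medians of these 13 ran from -0.24 (chromosome 7) to 0.20 (chromosome X). All 43 members lay above the median of their own chromosome, and the median member stood 0.52 above it. Pold3 lies on chromosome 7 from 100082110 to 100121502, where the median was -0.30, -0.16 and -0.19 in PDAC replicates 1, 2 and 3 relative to the normal ductal mean. Its own difference of -0.21 was 0.03 above that of the chromosome. Pold1 and Lig1 are on the same chromosome. The part of chromosome-wide shifts in these differences was not tested.

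**Figure D5:**
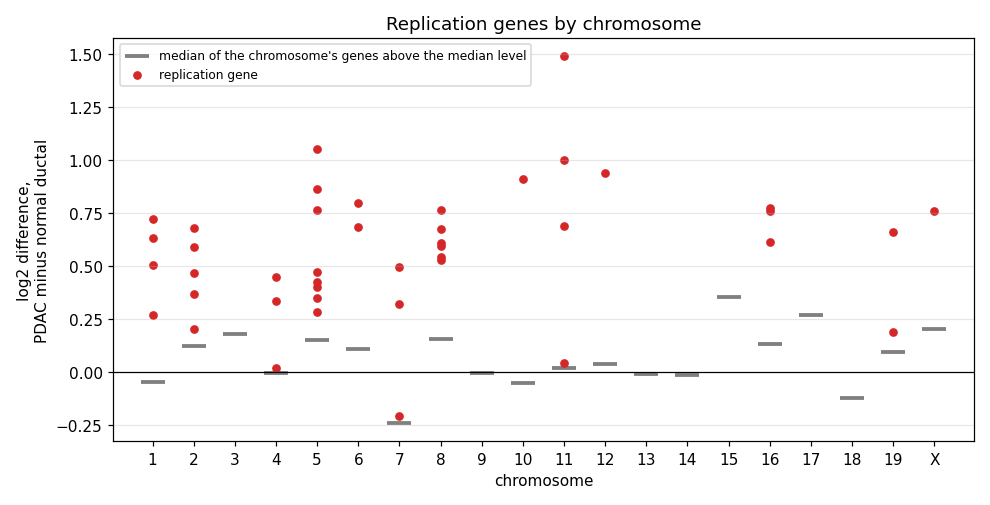
The log2 difference of each replication gene (points) is plotted on the y axis by chromosome, with the median of that chromosome's genes above the median level as a grey bar. Every point lies above its bar, and the point just above the bar of chromosome 7 is Pold3.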

How the data were processed

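The authors deposited 1 log2 signal for each probe set and array, and these values were used as given. Per the labels' protocols RNA was extracted with a column kit and prepared with a whole-transcript expression kit and a terminal labelling kit, and Transcriptome Analysis Console (1.0.0.234) and mm10 are named in the submitters' processing notes. How background, normalization and probe summary were handled is not given in the sources used here. That the scale is log2 was inferred from the range, 0.727 to 13.9. Array medians lay between 5.90 and 6.02. Arrays carry no counts.

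Probe sets with 1 gene symbol in the platform annotation (21789 of 35556) gave 19938 genes, the probe set with the highest mean standing for a gene. Limma 3.58.1 in R 4.3.3 (lmFit, eBayes with an intensity trend, both directions, 3 residual and 0.91 prior degrees of freedom) compared 3 PDAC with 2 normal ductal arrays, adjusted by Benjamini-Hochberg over the 19938 genes, and the fit was checked on simulated data. "Higher" names a difference of means, and no member passed the adjusted threshold of 0.05. Equal deposited values occur on 2 or more arrays for 4 members.

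The members, lists and alternatives were chosen with earlier results of these data known. Values on every array are given for up to 5 members of a role with the smallest p and the one with the smallest difference or largest fall, and for up to 4 genes of a companion list. Positions and promoters came from RefSeq tables (GRCm38.p6, the assembly also called mm10). Figures used Python 3.11.15 with matplotlib 3.10.9. The alternatives were other normalizations, filters, variance models, array weights, the mean of probe sets, a replicate block, leaving out each array and, added after seeing the data, leaving out genes with equal values.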

Additional observations from a re-analysis of the deposited data

How the results depend on the processing

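Scaling moved the median difference of all genes from 0.01 to 0.04 (quantile) and 0.10 (arrays set to a common median), and the last raised the members' median to 0.69. In the other alternatives that kept all arrays, 19 to 30 members were higher at an unadjusted p under 0.05. With the replicate block, described below, 18 were. The share of all genes tested ran from 4.59% (without moderation, 19 members) to 11.4% (without the lowest 50% of genes, 26 members). At a common median, 30 members stood beside 9.35%. Pold3 was the 1 lower member without an intensity trend and without moderation (0 elsewhere). Leaving out each array gave 11 to 24 higher members, 32 to 39 that parted the groups and member medians of 0.47 to 0.64. The share of all genes higher then ran from 4.68% to 13.5%, the last without normal ductal replicate 1, where 16 members were higher. Orc1 then ranged from -0.21 to 0.23 and Cdc6 from -0.080 to 0.16, the 2 members whose direction turned. With 1 array left out the groups are parted more easily, and the share of all genes that parted them was not counted in these fits. The count of all genes called was 42 with quantile normalization, 80 at a common median, 42 without the lowest 50% of genes, 1 without moderation, 3 with array weights, 250 without genes of equal values and 0 to 1287 with 1 array left out. The replicate number as a block, with 1 residual degree of freedom, called 0 genes. It left 18 members higher at an unadjusted p under 0.05 and a member median of 0.62. Replicate 3 exists in PDAC alone, so the block fit drew its differences from the other arrays, as did the fit without PDAC replicate 3. The numbers do not pair the cultures by the labels, and the deviations of PDAC replicates 1 and 2 correlated at r = -0.219 and -0.069 with those of the same-numbered normal ductal arrays over genes above the median level. A change near the size of these differences is hard to call over all genes with 5 arrays. The adjusted p fell under 0.05 for Tk1 at a common median (0.0382), without the lowest 50% of genes (0.0472) and without genes of equal values (0.0276), range 0.0276 to 0.44. It did so for Rpa3 without normal ductal replicate 2, and for Mtbp (0.0458, up to 0.44) and Skp2 (0.0459, up to 0.44) without genes of equal values, an alternative added after seeing the data.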

Other observations

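The replication companions with the smallest p lie on few chromosomes. Mtbp, Dscc1 and Recql4 are on chromosome 15 and Chtf18 on chromosome 17, the chromosomes with the highest medians over genes above the median level. These medians were 0.35 on chromosome 15 (412 genes) and 0.27 on chromosome 17 (488 genes), and no replication member lies on either. On chromosome 15 the medians were 0.44, 0.36 and 0.24 in PDAC replicates 1, 2 and 3 relative to the normal ductal mean, and on chromosome 17 they were 0.26, 0.23 and 0.28. Every PDAC array lay above both normal ductal arrays for 51% of the genes on chromosome 15 and 46.3% on chromosome 17, beside 23% over all chromosomes.

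Skp2, with the largest difference of the E2F and S-phase entry list, is on chromosome 15 as well. The 5 companions of all lists on chromosome 15 ran from -0.10 (Rrm2b, a ribonucleotide reductase subunit used in repair) to 1.48 (Skp2), with a median of 0.99. The median of the other 100 companions was 0.38. These genes and chromosomes were picked after their values were seen, and no test was made.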
